A study of Mus musculus with 6 samples.

Results

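Heat shock proteins and molecular chaperones were examined in RNA sequencing of embryonic mouse forebrain cells with and without loss of 1 copy of Magoh. The members were chosen by name from the deposited normalized table. They comprise the Hsp70 (Hspa), small heat shock (Hspb), Hsp90 and J-domain (Dnaja, Dnajb, Dnajc) genes, the subunits of the cytosolic chaperonin TRiC (Cct2 to Cct8 and Tcp1), and Hspd1, Hspe1 and Hsph1, with names ending in -ps left out. The rule took 74 of 18065 genes, of which 71 had enough reads to be tested. Names alone chose them, and a few members are not folding factors, such as Hspb11, a ciliary transport protein.

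The cells were sorted from the telencephalon of C57BL/6 embryos at E11.5 by tdTomato fluorescence and are labelled as medial ganglionic eminence (MGE) cells, the progenitor region of many cortical interneurons. The 4 controls carried Nkx2.1-Cre, which is active in this region, and the Cre-dependent reporter ROSAloxSTOPloxTdTomato. The 2 heterozygous libraries carried the same Cre and reporter together with Magoh lox/+, so that 1 Magoh copy is lost where Cre has acted. The exon junction complex, to which Magoh belongs, is laid down on spliced mRNA, and the design asks how its reduced dose changes the transcriptome. The labels do not say whether each library came from a separate embryo, so the p-values measure the spread between these libraries, which may be technical.

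Molecular chaperones bind unfolded or partly folded proteins and help them to fold, assemble or be degraded. Hsp70 proteins work in cycles driven by ATP that J-domain proteins start and nucleotide exchange factors such as the Hsp110 proteins close, while Hsp90 acts later on kinases, receptors and other clients, and the ring-shaped chaperonins enclose proteins such as actin and tubulin. Part of the family is induced through heat shock elements by the factor Hsf1, part through endoplasmic reticulum (ER) stress elements, and part is expressed in every cell.

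Total counts were 37429290 to 49189360 reads per library. All 8 MGE markers were read in every library, with a summed level of 911 to 1760 CPM (read counts scaled to a common library total) in the controls and of 1420 and 2520 CPM in the heterozygous libraries. Magoh itself was at 68.1, 117.9, 63.6 and 74.3 CPM in controls 1 to 4 and at 57.1 and 48.6 CPM in heterozygous libraries 1 and 2, below every control, with a log2 fold change of -0.62 ± 0.27 (SE; edgeR adjusted p = 0.850). Control 2 and heterozygous 1 stood apart from the other 4 libraries in 2 respects. They had 0 Y-linked reads, and transcripts over 8000 bases were low in them relative to transcripts under 1000 bases, by -0.75 and -0.32 on the log2 scale against 0.12 to 0.38 in the other libraries.

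Promoter sequences known from the stress responses were searched for first, because the stress-inducible members are known to be switched on through them. A RefSeq promoter window (250 bases before to 50 bases after the transcript start, build GRCm38.p6) was found for 60 of the 74 members. The heat shock element was taken as GAA, TTC and GAA in this order, or TTC, GAA and TTC, with any 2 bases between neighbouring units, and the ER stress element as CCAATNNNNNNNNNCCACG, on both strands. The first was present in 4 of 60 members against 0.662% of all genes with a window. The second was present in 3 of 60 members against 0.137%. The strict heat shock match was absent from the windows of Hspa1a, Hspa1b and Dnajb1, and Hsp90aa1, Hsp90ab1 and Hspa8 had no window. A member outside these counts may therefore still hold an element. The following sequences are written 5′ to 3′ on the strand of the gene, with the matched letters in capitals.
Hspa5 (chr2:34772020-34772048, plus strand): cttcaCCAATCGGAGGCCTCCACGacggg
Dnajc3 (chr14:118937797-118937875, plus strand): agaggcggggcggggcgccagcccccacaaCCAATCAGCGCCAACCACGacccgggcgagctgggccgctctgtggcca
Hsp90b1 (chr10:86705510-86705679, minus strand): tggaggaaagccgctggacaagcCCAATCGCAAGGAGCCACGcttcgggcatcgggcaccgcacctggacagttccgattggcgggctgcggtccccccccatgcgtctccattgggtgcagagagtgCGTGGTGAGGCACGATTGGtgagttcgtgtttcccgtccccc
Hspd1 (chr1:55088053-55088082, minus strand): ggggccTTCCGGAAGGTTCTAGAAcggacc
Hspe1 (chr1:55088053-55088082, plus strand): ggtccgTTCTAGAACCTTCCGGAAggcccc
Dnajb6 (chr5:29735844-29735872, plus strand): agctccgaGAATCTTCCGGAAcgctagac

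The 3 genes with an ER stress element encode ER proteins. Hspa5 is BiP, the ER Hsp70, Hsp90b1 is the ER Hsp90 GRP94, and Dnajc3 is the ER co-chaperone P58IPK. Hsp90b1 held 2 matches, 1 on each strand. Hspd1 and Hspe1 encode the mitochondrial chaperonin Hsp60 and its lid Hsp10, lie head to head on chromosome 1, and share 1 stretch that holds 2 overlapping heat shock elements, shown above from either strand. The fourth match was in Hsph1, downstream of its start. All stretches lie before a RefSeq start, although the GENCODE M21 annotation also places those of Hspa5, Hspd1 and Dnajb6 in the 5′ untranslated region of a transcript that starts earlier. The shorter CCAAT box alone, which is part of the ER stress element, was in 28 of 60 members and in 41.1% of all genes. A match is a description of letters and does not show that a factor binds there.

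The chaperones were among the abundant mRNAs of these cells. Together the members took 1.33% to 1.51% of all counts in each library, and 5 genes held 51.8% of the members' counts. On the scale of reads per kilobase of exon, scaled as CPM (RPKM), the median tested member stood at the percentile 71.7 of all tested genes, 21 members were above the 90th percentile and 4 below the 25th. Hsp90ab1, the constitutive cytosolic Hsp90, was highest at 1015 RPKM in the controls, followed by Hspa8, the constitutive Hsc70, at 544 RPKM, Hsp90aa1, the more inducible cytosolic Hsp90, at 218 RPKM, and the TRiC subunit Cct2 at 211 RPKM. The means of Hsp90aa1 and Cct2 did not differ beyond their spread over the controls, with SDs of 45.6 and 36.4 RPKM (n = 4). Within libraries, Hsp90aa1 was above Cct2 in controls 1, 3 and 4, at 230, 255 and 236 RPKM against 195, 187 and 196 RPKM. In control 2 it was below, at 151 RPKM against 265 RPKM.

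**Figure D1:**
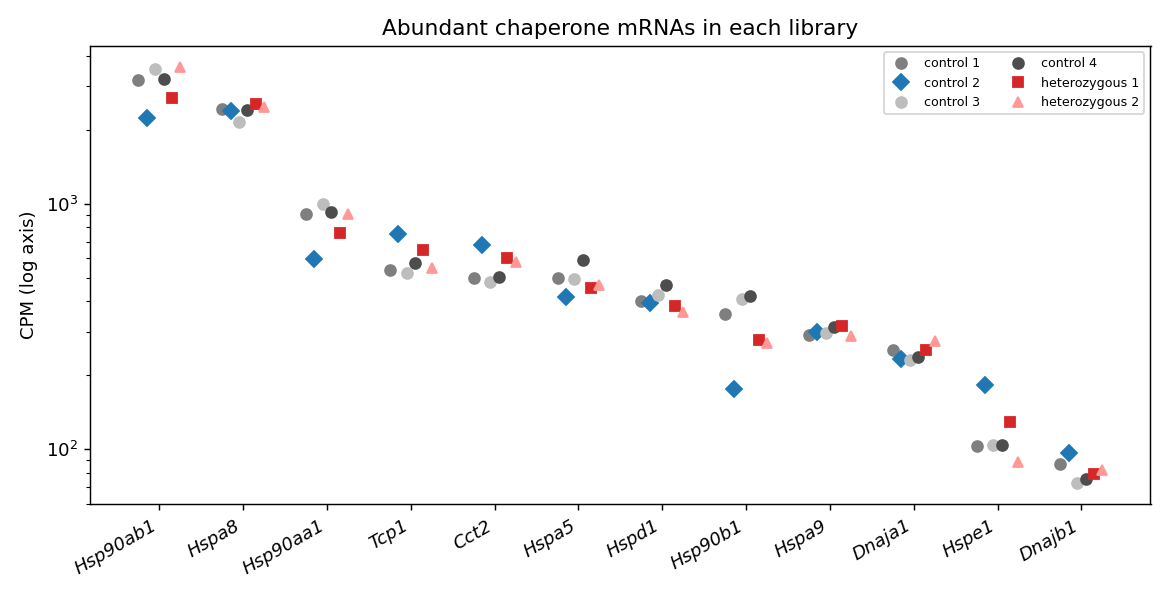
Level of abundant chaperone mRNAs in each of the 6 libraries, in CPM on a log axis; each point is 1 library. Hspa8 is at 2151 CPM or more and Hsp90ab1 at 2224 CPM or more in every library, and the Hsp90 points of control 2 lie below those of the other controls.

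No member differed between the genotypes after adjustment over all genes. The edgeR quasi-likelihood test called 0 of the 71 tested members, with a smallest adjusted p of 0.821, and 0 of all 16495 tested genes (background 0%). DESeq2 called 0 members and 75 of all genes (background 0.455%). At an unadjusted edgeR p under 0.05 there were 3 members, Dnajc25, Dnajc6 and Hspb1, and 944 of all genes (background 5.72%), so that their share of 4.23% was close to that of all genes. The log2 fold change, heterozygous minus control, was above 0 for 38 of the 71 members (53.5%) and for 46.1% of all tested genes, with medians of 0.01 and -0.03. The members' count was 27 with Y-linked reads as a covariate, 28 without heterozygous 1, 31 without control 3 and 32 without control 1. It was within 0.2 of 0 for 43 members (60.6%) and for 46.3% of all genes.

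Separation of the groups was also near the background. Both heterozygous libraries were above all 4 controls for 3 members, Hspa8, Dnaja1 and Dnajc6 (background 6.17%), and below all 4 for 5 members, Hspb1, Dnajc25, Hspa1b, Dnajc3 and Hspd1 (background 8.14%). With 4 against 2 libraries the smallest 2-sided p of an exact permutation test is 0.0667. In bulk RNA of sorted cells, fewer cells that express a gene and less RNA per cell cannot be told apart.

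**Figure D2:**
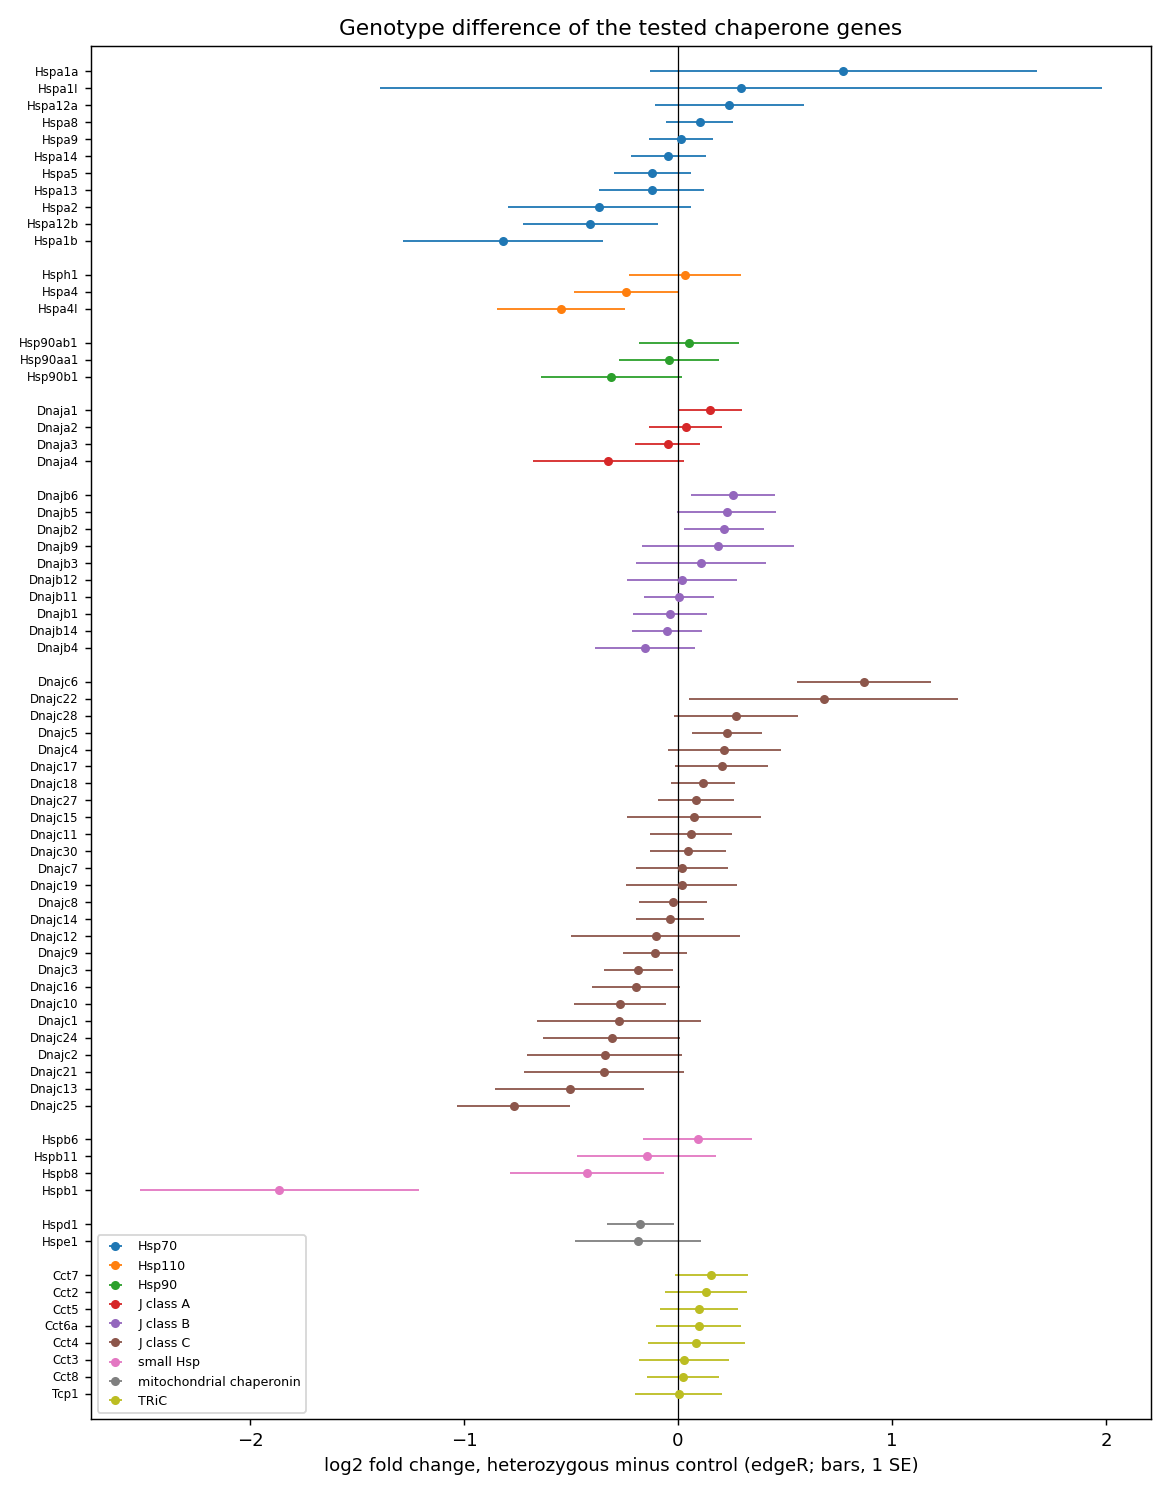
Log2 fold change (heterozygous minus control, edgeR, 4 controls and 2 heterozygous libraries) of the 71 tested chaperone genes by class; each point is a gene and bars are 1 SE. The points spread on both sides of 0 from -1.86 for Hspb1 to 0.87 for Dnajc6.

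Among the cytosolic Hsp70 genes, Hspa8 (chr9:40800984-40810087) dominated. It was at 2423, 2388, 2151 and 2398 CPM in controls 1 to 4 and at 2550 and 2471 CPM in the heterozygous libraries, a log2 fold change of 0.10 ± 0.16 (SE). Both heterozygous libraries were above all controls, but by less than the range of the controls. Its exons hold 3 small nucleolar RNA genes and share 51.4% of their 50-base pieces with other genes, mainly Gm15459. The stress-inducible Hspa1a and Hspa1b lie side by side on chromosome 17 and had few counted reads. They share 60.3% and 62.3% of the 50-base pieces of their exons with other genes, mainly each other. Their sum was 3.32, 1.75, 2.28 and 1.97 CPM in the controls and 1.13 and 2.24 CPM in the heterozygous libraries, so that the groups overlapped. Hspa1b alone was at 2.63, 1.61, 2.12 and 1.68 CPM in the controls and 0.707 and 1.57 CPM in the heterozygous libraries (-0.82 ± 0.47, edgeR adjusted p = 0.908), whereas Hspa1a had a log2 fold change of 0.77 ± 0.91. The value of Hspa1b ranged from -1.51 without heterozygous 2 to -0.35 without heterozygous 1. That of Hspa1a ranged from 0.40 without heterozygous 2 to 1.47 without control 1, and it was -0.05 with the sample code number as a replicate block. Reads that match both genes of this pair could be divided between them or left uncounted. The sum is the safer value only in the first case, and uncounted reads would make it too low. Hspa1l, a relative expressed mainly in the testis, was read at 0 to 0.495 CPM, with 0 reads in control 2 and heterozygous 2 (a count of 0 allows up to 0.0835 and 0.0610 CPM).

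Of the organelle Hsp70 genes, Hspa9 and Hspa5 differed little between the genotypes. Hspa9, the mitochondrial mortalin, was at 291, 300, 296 and 314 CPM in the controls and at 318 and 288 CPM in the heterozygous libraries (0.01 ± 0.15). Its SD over the 6 libraries was at the percentile 0.5 of all genes tested, and that of Hspa8 at 1.8. Hspa5 (chr2:34771970-34777547) was at 500, 417, 495 and 588 CPM in the controls and 454 and 467 CPM in the heterozygous libraries (-0.12 ± 0.18), inside the control range. Its lowest values of the 6 libraries were in control 2 and heterozygous 1. Hspa12b, a divergent Hsp70 of blood vessels, was at 6.65, 6.23, 8.64 and 10.8 CPM in the controls and 7.33 and 4.86 CPM in the heterozygous libraries (-0.41 ± 0.31, edgeR adjusted p = 0.970). Its groups overlapped, and the summed endothelial markers were at 4.90 to 20.4 CPM in the controls and 7.54 and 7.16 CPM in the heterozygous libraries. Their part in the result was not tested.

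The 3 Hsp110 genes, which exchange nucleotide on Hsp70, differed between libraries more than between genotypes. Hspa4l was at 97.1, 61.0, 122 and 101 CPM in the controls and 51.6 and 78.9 CPM in the heterozygous libraries (-0.55 ± 0.30, edgeR unadjusted p = 0.106, adjusted p = 0.905). Hsph1 was at 213, 112, 182 and 197 CPM against 168 and 192 CPM (0.03 ± 0.26), and Hspa4 at 357, 225, 372 and 360 CPM against 242 and 314 CPM. For each of the 3 genes, control 2 and heterozygous 1 were the lowest of the 6 libraries.

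Both cytosolic Hsp90 genes were also lowest in control 2 and heterozygous 1. Hsp90ab1 (chr17:45567775-45573271) was at 3179, 2224, 3544 and 3225 CPM in the controls and 2691 and 3610 CPM in the heterozygous libraries (0.05 ± 0.23). Hsp90aa1 was at 904, 595, 1001 and 927 CPM against 758 and 905 CPM (-0.04 ± 0.23), and its exons share 58.5% of their 50-base pieces with other genes, mainly Gm12346. In both, control 2 was lower than heterozygous 1, and the ratio of Hsp90ab1 to Hsp90aa1 stayed at 3.48 to 3.99. The ER form Hsp90b1 was at 355, 177, 407 and 420 CPM in the controls and 278 and 270 CPM in the heterozygous libraries (-0.31 ± 0.33), with control 2 lowest and heterozygous 2 next.

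Among the class A and B J-domain proteins, which deliver substrates to Hsp70, no gene passed the test. Dnaja1, a farnesylated partner of Hsc70, was at 253, 234, 230 and 237 CPM in the controls and 255 and 275 CPM in the heterozygous libraries, which were both above all controls by a small margin (0.15 ± 0.15). Dnajb1, the Hsp40 of the heat shock response, was at 87.2, 96.2, 72.6 and 75.6 CPM against 79.6 and 82.0 CPM (-0.04 ± 0.17), inside the control range. Dnajb6, an inhibitor of protein aggregation with a heat shock element in its promoter window, was at 103, 131, 94.2 and 87.1 CPM against 127 and 122 CPM (0.26 ± 0.20, edgeR adjusted p = 0.970), with control 2 the highest. It shares 35.8% of its 50-base pieces with other genes, mainly Gm2541.

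The class C J-domain proteins are the most diverse, and 2 of the 3 smallest p-values were among them. Dnajc25 (chr4:58995062-59025573), a membrane protein, was at 5.74, 5.62, 4.64 and 4.81 CPM in the controls and at 2.97 and 3.13 CPM in the heterozygous libraries. Both heterozygous libraries were below all controls (-0.77 ± 0.26, edgeR unadjusted p = 0.0189, adjusted p = 0.821, DESeq2 adjusted p = 0.355). Its exons overlap those of Gm20503 on the same strand, and reads there could be assigned to neither or to either. Dnajc6 (chr4:101496648-101642799), the neuronal auxilin that uncoats clathrin vesicles, was at 15.8, 7.32, 8 and 9.78 CPM in the controls and at 18.6 and 18.7 CPM in the heterozygous libraries. Both were above all controls, of which control 1 came nearest (0.87 ± 0.31, edgeR unadjusted p = 0.0249, adjusted p = 0.841, DESeq2 adjusted p = 0.434). A list of 8 neuron markers, chosen after their values were seen, summed to 2894, 2695, 2344 and 1960 CPM in the controls. In the heterozygous libraries the sums were 3354 and 4059 CPM, also above all controls. A list chosen in this way is no independent evidence, and the part of these markers in the Dnajc6 difference was not tested.

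Dnajc13, which acts in endosomal sorting, was at 67.4, 31.0, 75.5 and 70.6 CPM in the controls and 37.8 and 48.3 CPM in the heterozygous libraries (-0.51 ± 0.35), with control 2 below both of the latter. Dnajc5, the synaptic cysteine string protein, was at 167, 188, 155 and 147 CPM against 187 and 197 CPM (0.23 ± 0.16, edgeR adjusted p = 0.959), and Dnajc10, an ER disulfide reductase, at 93.6, 130, 97.5 and 120 CPM against 106 and 76.9 CPM (-0.27 ± 0.21). Both sets of values overlapped. Dnajc3 was at 31.5, 29.4, 34.7 and 33.7 CPM against 29.4 and 27.5 CPM (-0.19 ± 0.16), with heterozygous 1 only just below control 2, and Dnajc7, a co-chaperone that binds both Hsp70 and Hsp90, at 166, 125, 189 and 174 CPM against 141 and 189 CPM (0.02 ± 0.22). Over the 26 class C genes, 13 fold changes were above 0 and 13 below.

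**Figure D3:**
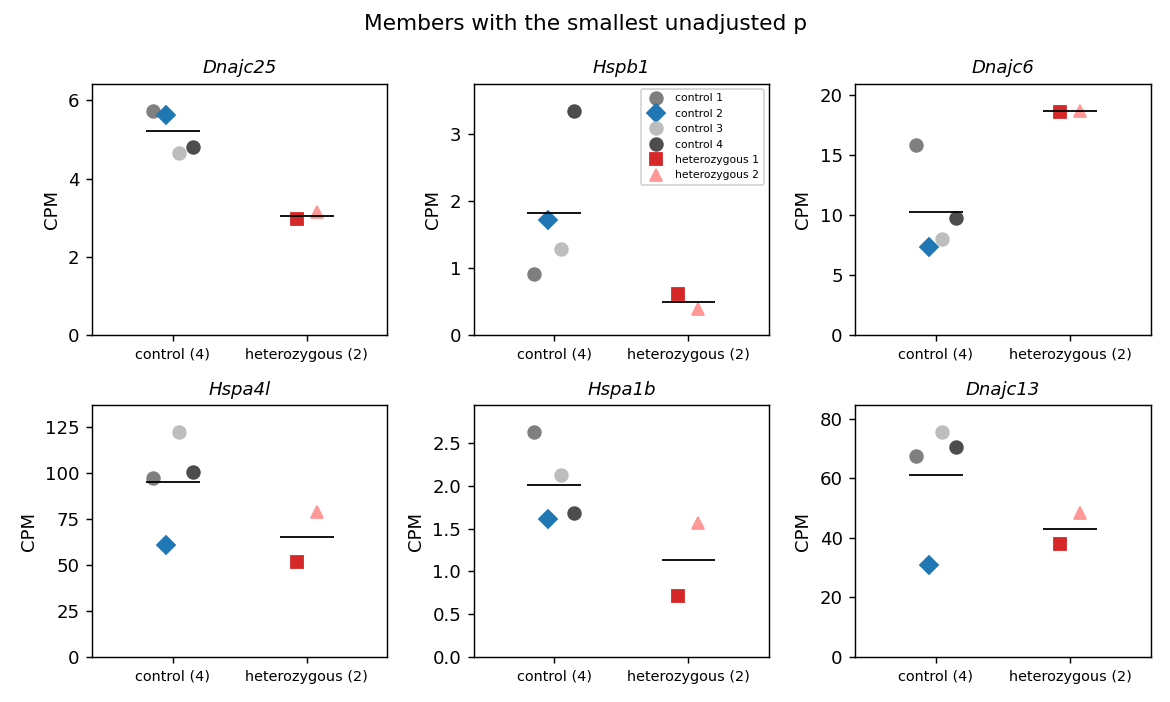
CPM of Dnajc25, Hspb1, Dnajc6, Hspa4l, Hspa1b and Dnajc13, the 6 tested members with the smallest unadjusted p, in 4 controls and 2 heterozygous libraries; points are libraries and lines are group means. The groups do not overlap for Dnajc25, Hspb1, Dnajc6 and Hspa1b, and they overlap for Hspa4l and Dnajc13.

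The small heat shock proteins, which hold unfolded proteins without ATP, were low. Hspb1 (Hsp25, chr5:135887919-135889563) was at 0.911, 1.73, 1.28 and 3.36 CPM in the controls, from 34 to 150 reads, and at 0.613 and 0.387 CPM in the heterozygous libraries, from 26 and 19 reads. The heterozygous libraries were below all controls (-1.86 ± 0.65, edgeR unadjusted p = 0.0218, adjusted p = 0.833, DESeq2 adjusted p = 0.322). Control 4, the highest, had a summed microglial marker level of 58.4 CPM against 1.47 to 1.78 CPM in the other controls and 5.92 and 0 CPM in the heterozygous libraries, and the lowest summed MGE markers. Control 4 was also the highest control for the summed blood markers, at 131 CPM, and endothelial markers, at 20.4 CPM. In the heterozygous libraries the blood markers summed to 354 and 0.61 CPM and the endothelial markers to 7.54 and 7.16 CPM. Without control 4 the fold change of Hspb1 was -1.38. The part of these markers in the Hspb1 difference was not tested. Hspb1 shares 51.6% of its 50-base pieces with other genes, mainly the pseudogene Hsp25-ps1. Hspb8, a partner of Bag3 in selective autophagy, was at 2.73, 2.37, 2.32 and 3.65 CPM against 2.48 and 1.65 CPM (-0.43 ± 0.36), with overlapping groups.

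The mitochondrial chaperonin pair had similar genotype differences but did not move in step over the libraries. Hspd1 was at 402, 395, 426 and 465 CPM in the controls and 383 and 364 CPM in the heterozygous libraries, just below all controls (-0.18 ± 0.16). Hspe1 was at 103, 183, 104 and 104 CPM against 129 and 88.6 CPM (-0.19 ± 0.29), with control 2 far above the rest. The ratio of Hspe1 to Hspd1 was therefore 0.464 in control 2 and 0.336 in heterozygous 1, against 0.224 to 0.256 in the other 4 libraries. Their annotated exons overlap by 112 bases on opposite strands, and 44.8% of the 50-base pieces of Hspd1 occur in other genes, mainly Hspd1-ps3.

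The TRiC subunits lay close together. Their 8 tested genes had log2 fold changes from 0.00 to 0.16, all at or above 0, with a median of 0.09 and 0 called by edgeR (smallest adjusted p = 0.999). Tcp1 was at 535, 753, 522 and 571 CPM in the controls and 649 and 544 CPM in the heterozygous libraries (0.00 ± 0.20, and below 0 with Y-linked reads as a covariate), and Cct2 at 499, 677, 478 and 501 CPM against 600 and 578 CPM (0.13 ± 0.19). Cct7 had the largest fold change, with 387, 473, 357 and 395 CPM against 463 and 435 CPM. In all 8 genes control 2 was the highest library and heterozygous 1 the next. Shares of the summed RPKM were steady over the libraries, from 21.9% to 24.4% for Cct2 and 18.5% to 19.8% for Cct5 down to 6.48% to 7.41% for Cct3 and 6.03% to 6.92% for Cct7. The order of the subunits depends on the exon length used, which was 2557 bases for Cct2 and 6778 bases for Cct7 over all annotated transcripts. Their longest single transcripts have 1959 and 3884 bases. Without division by length, the control means were 595 CPM for Tcp1, 539 for Cct2, 433 for Cct3 and 403 for Cct7.

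The same split of libraries therefore ran through several classes. Control 2 and heterozygous 1 were both above the other 4 libraries for 8 of 8 TRiC genes (background 19.4%), with a median difference of 0.34 on the log2 scale. They were both below the other 4 for 3 of 3 Hsp110 genes and 2 of 3 Hsp90 genes (background 19.8%), with medians of -0.59 and -0.48. Over all 71 tested members the counts were 19 above and 18 below, or 26.8% and 25.4%. These 2 libraries were singled out by their lack of Y-linked reads, and the difference is a description with no test.

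After removal of the length and GC trends from each library, 6 of 8 TRiC genes stayed above with a median of 0.25, against 17.0% of all genes, and 3 of 3 Hsp90 genes and 2 of 3 Hsp110 genes were below with medians of -0.66 and -0.55, against 16.4%. The mitochondrial pair went opposite ways, with Hspe1 at 0.62 before and 0.25 after the removal and Hspd1 at -0.08 and -0.28, and after it Hspe1 was above and Hspd1 below the other 4 libraries. The sum of the 8 TRiC genes relative to Hsp90ab1 was 1.97 in control 2 and 1.49 in heterozygous 1, and 0.884 to 1.05 in the other 4 libraries. The sex-linked reads and the shift by exon length both go with the split in these 2 libraries. Their parts in it, and those of other properties of the libraries, cannot be told apart here.

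Members outside these classes lay at both ends of the split. Dnajc21, a factor of ribosome maturation, was at 20.8, 9.41, 22.4 and 17.8 CPM in the controls and 10.3 and 17.4 CPM in the heterozygous libraries, a difference of -0.99 on the log2 scale between the 2 libraries and the other 4. Dnajc2, which acts with Hsp70 on the ribosome, was at 60.0, 28.2, 68.1 and 56.7 CPM against 31.8 and 52.1 CPM, a difference of -0.98. Both genes kept their place after removal of the trends, at -1.15 and -1.14. At the other end, Dnajb9, an ER co-chaperone of Hspa5, was at 15.2, 25.4, 11.7 and 15.1 CPM against 24.8 and 13.6 CPM, with a difference of 0.86 that went to 0.44. Dnajc15, a protein of the inner mitochondrial membrane, was at 18.2, 33.1, 17.1 and 21.2 CPM against 28.6 and 18.6 CPM, with 0.72 before and 0.73 after. In all 4 genes, control 2 and heterozygous 1 lay together beyond the other libraries of either genotype.

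**Figure D4:**
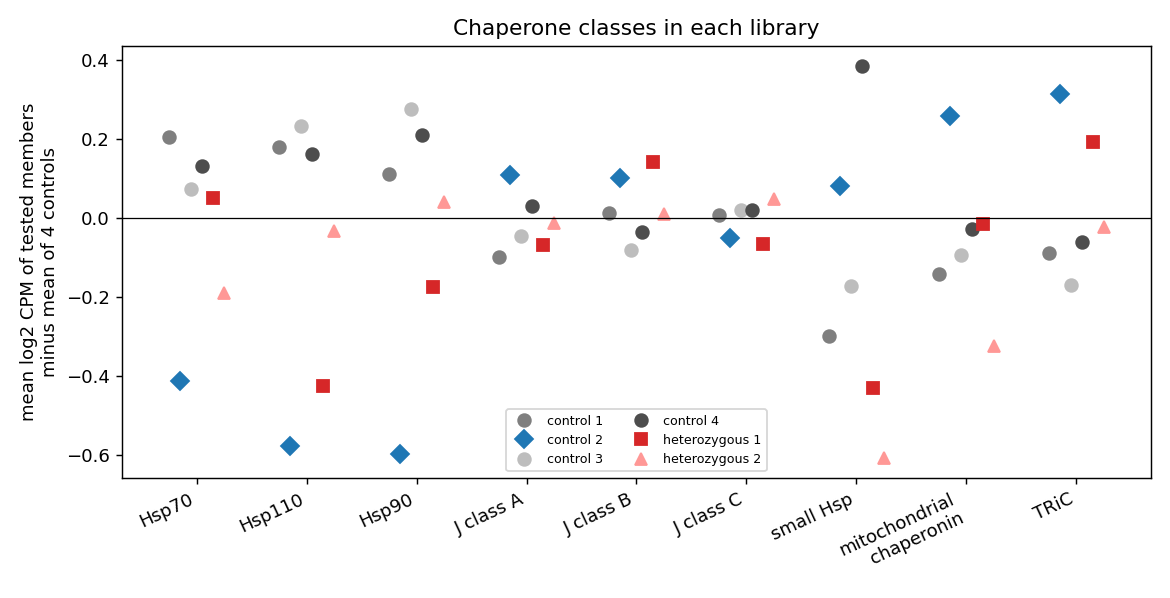
Mean log2 CPM of the tested members of each class in each library, minus the mean of the 4 controls; points are the 6 libraries. TRiC is highest in control 2 at 0.316 and heterozygous 1 at 0.194, and Hsp110 is lower in these 2 libraries, at -0.578 and -0.426, than in the other 4.

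**Figure D5:**
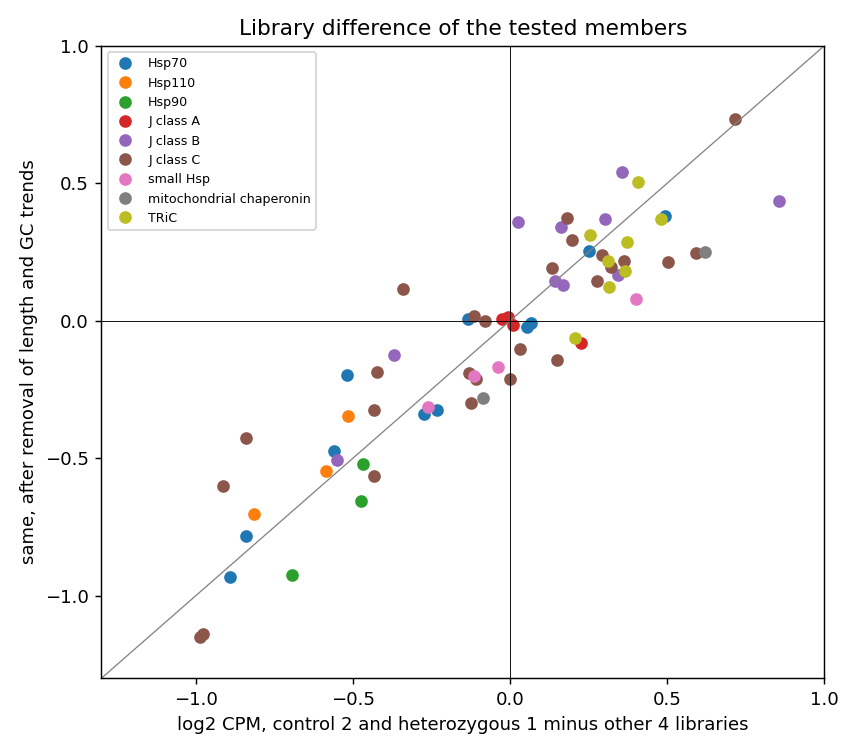
Difference in log2 CPM between the 2 libraries without Y-linked reads (control 2 and heterozygous 1) and the other 4, before (x axis) and after (y axis) removal of the length and GC trends; each point is 1 tested member. Hsp90 and Hsp110 genes lie at negative values on both axes, and TRiC genes at positive values on both, except Cct8 at -0.06 on the y axis.

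Compared within these sets, the genotype difference changed sign between them for the medians of TRiC, Hsp90 and Hsp110. For TRiC the median of heterozygous 1 minus control 2 was -0.12, and that of heterozygous 2 minus controls 1, 3 and 4 was 0.08. For Hsp90 the same medians were 0.35 and -0.06, and for Hsp110 they were 0.11 and -0.21. The change of sign was not particular to these classes. It was also seen for Hsp70 (0.12 and -0.17), J class A (-0.16 and 0.06) and J class B (0.01 and -0.01). It was not seen for J class C, the mitochondrial pair or the small heat shock proteins. Over all tested genes the medians were 0 and -0.03. Each set holds 1 heterozygous library, and these values have no test.

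Other genes of the folding network were read from lists of partners. None of the 3 tested of 4 heat shock factor genes, 20 cochaperones, 6 prefoldin subunits, 17 ER folding genes or 8 mitochondrial quality control genes was called by edgeR, and the numbers above 0 were 2, 9, 4, 5 and 3. Hsf1, which activates heat shock genes, was at 41.7, 28.9, 44.8 and 39.8 CPM in the controls and 23.5 and 38.0 CPM in the heterozygous libraries, a log2 fold change of -0.33 ± 0.26 (SE). Control 2 and heterozygous 1 were below the other 4 libraries, by -0.65 on the log2 scale, and the genotypes overlapped. After removal of the length and GC trends this library difference of Hsf1 was -0.35. Prefoldin hands unfolded actin and tubulin to TRiC. Its 6 genes were all above the other libraries in control 2 and heterozygous 1 (background 19.4%), as the TRiC genes were. Their median difference of 0.52 went to 0.15 after removal of the length and GC trends. The median exon length of these genes was 1665.5 bases, against 4077 bases for all tested genes. In the ER list, Atf4, a transcription factor of the stress response, was at 83.2 ± 6.85 CPM (SD, n = 4) and 109 ± 1.59 CPM (SD, n = 2), above all controls in both heterozygous libraries (0.38 ± 0.15, edgeR unadjusted p = 0.0357, adjusted p = 0.850). Creld2, an ER stress gene, was below them at 29.6 ± 3.45 CPM against 35.9 ± 3.17 CPM. Grpel2, an exchange factor of mitochondrial Hsp70, was above them at 38.2 ± 4.75 CPM against 30.8 ± 2.93 CPM (0.31 ± 0.17), and St13, the Hsp70-interacting protein Hip, was above them at 294 ± 17.7 CPM against 263 ± 7.60 CPM. These were all the partners whose groups did not overlap, 3 of 54 above (5.56%) and 1 of 54 below (1.85%), which is no more than the 6.17% and 8.14% of all genes.

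Because Magoh belongs to a complex placed at exon junctions, the members were also grouped by the largest number of exons in an annotated transcript. The median log2 fold change was 0.08 for the 4 tested members with 1 exon, which include Hspa1a and Hspa1b, -0.07 for 16 members with 2 to 5 exons, 0.03 for 20 members with 6 to 10 exons and 0.01 for 31 members with more than 10 exons. The ranges of the groups overlapped.

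The 3 members that were not tested were near 0. Dnajb13, a gene of motile cilia and sperm tails, was read in control 4 (0.0671 CPM) and heterozygous 2 (0.407 CPM) alone, and Cct6b, the testis form of Cct6a, in control 1 (0.161 CPM) and control 3 (0.332 CPM) alone. Hspa9-ps1, a pseudogene that the naming rule let through, was at most at 0.640 CPM. A further 11 matching names of the raw table, such as Hspb2, Hspb3, Hspb7 and Dnajb8 with 0 reads in every library, had too few reads for the normalized table.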

How the data were processed

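RNA from 4 control and 2 heterozygous samples was sequenced after NuGEN mRNA library preparation, per the labels' protocols. Reads were handled with Trim Galore, STAR and HTSeq against mm10, per the submitters' processing notes (versions not given in the sources used here). The deposited raw table holds counts per gene (38561 genes). The deposited normalized table, which chose the members, holds a signal that equals those counts divided by 1 size factor per library; this was checked from the values.

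The counts were tested with edgeR 4.0.16 in R 4.3.3: filterByExpr (16495 genes kept), TMM factors, robust quasi-likelihood fit, 2-sided test, Benjamini-Hochberg adjustment over all tested genes, threshold 0.05. CPM used TMM-scaled totals. RPKM and the length trends used the union exon length of GENCODE M21. SEs of log2 fold changes came from the F statistic. Alternatives were DESeq2 1.42.0, limma 3.58.1 and the settings named in the closing section. A count of 0 allows up to 3 counts, counting error only.

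Members and lists were chosen with earlier results of these data known. Fold changes are given for the best known member of each class and the 12 members with the smallest p; others are given for their level or class. Hspa4, Cct7, Dnajb9, Dnajc2, Dnajc15, Dnajc21 and the neuron markers were chosen after their values were seen. Motifs were matched as plain letters.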

Additional observations from a re-analysis of the deposited data

Results flagged for a closer look

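In 7 of the 71 tested members, 1 of the 4 controls lay further from the other 3 than the spread of those would lead one to expect, as judged by Dixon's ratio of the gap to the range at its 95% critical value, so that chance alone flags about 1 in 20 groups. Control 2 was the distant library for 6 of them. It was high for Cct2 at 677.3 CPM (other controls 477.7 to 500.8), Cct3 at 543.5 CPM (382.4 to 409.2), Cct4 at 494.7 CPM (334.6 to 339.9), Hspe1 at 183.2 CPM (103.1 to 104.4) and Dnajc24, a J-domain protein of diphthamide synthesis, at 16.75 CPM (9.174 to 9.835). It was low for Hspa4 at 224.7 CPM (357 to 372). Hspa8 was low in control 3 at 2151 CPM (2388 to 2423). Control 2 is 1 of the 2 libraries without Y-linked reads. The share of all tested genes flagged in this way is not given here, so the flags cannot be read as particular to chaperones. Control 2 and heterozygous 1 lay together above the other 4 libraries for 19.4% of all tested genes and below them for 19.8%.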

How the results depend on the processing

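No member was called under any of 18 alternatives, and the lowest adjusted p of a named member was 0.168 (Dnajc13). Genes called over all genes went from 0 to 75 with DESeq2 and to 11 with the sample code number as a replicate block. Only the number 70 is shared by the groups (control 1 and heterozygous 2, correlation of their deviations 0.16), and the labels do not say what it marks. The median log2 fold change of the members, 0.014, was -0.039 with Y-linked reads as a covariate, -0.030 without both libraries lacking them, and -0.033 to 0.046 when each library was left out. With the replicate block, Hspa1a went from 0.77 to -0.05. The other fold changes that changed sign were between -0.19 and 0.05. With the replicate block, Hspa9 was -0.01, Hsph1 -0.15 and Hsp90aa1 0.00. With the Y-linked covariate, Hspa9 was 0.00, Hsp90aa1 0.11 and Tcp1 -0.08. With upper-quartile factors Tcp1 was 0.00. Without both libraries lacking Y-linked reads, Hspa9 was -0.05, Hsph1 -0.03 and Dnajb1 0.07. The members above 0 ranged from 28 to 39 when each library was left out and were 27 with the covariate. Leaving out each library in turn gave -0.05 to 0.08 for Hspa9, -0.12 to 0.14 for Hsph1, -0.18 to 0.09 for Hsp90aa1, -0.18 to 0.26 for Hsp90ab1, -0.09 to 0.06 for Dnajb1, -0.21 to 0.23 for Dnajc7, -0.47 to 0.08 for Hspe1 and -0.12 to 0.15 for Tcp1; the cause was not tested. Over all alternatives Hspa1b ranged from -1.51 to -0.35, Hspb1 from -2.25 to -1.23, Dnajc25 from -0.87 to -0.68 and Dnajc6 from 0.24, with the replicate block, to 1.16. The 2 heterozygous libraries limit the precision of every genotype difference.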
